A study of Mus musculus with 84 samples.

Results

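The glucocorticoid and metallothionein stress genes described here are 10 genes taken by symbol: the metallothioneins Mt1 and Mt2, the glucocorticoid-induced genes Tsc22d3, Fkbp5, Tat, Sgk1 and Igfbp1, the glucocorticoid receptor gene Nr3c1, and the hormone-handling genes Hsd11b1 and Serpina6. Each symbol matched 1 of the 17695 genes of the deposited count table, and all 10 passed the filter that left 10415 genes for testing. They were followed in 84 livers of male B6C3F1 mice, a cross of the C57BL/6 and C3H strains, which were 8 weeks old when dosing began. The mice ate AIN-93G diet for 7 days, either plain (control, n = 7) or with 1 of the organophosphate pesticides (OPPs) fenthion (FT) at 2.5, 5, 10 or 20 ppm, methidathion (MT) at 10, 25, 50 or 100 ppm, or parathion (PT) at 20, 40 or 80 ppm (n = 7 each). Food was freely available, so that the doses taken in are estimates, and cages rather than single mice were assigned to diets. RNA of frozen liver tissue was measured with TempO-Seq, which ligates pairs of neighbouring probes on each transcript and counts the ligated product by sequencing. Of the 7 mice in every group, 2 came from block 1 of the experiment, 3 from block 3 and 2 from block 4. RNA of 7 mice (2 control, 2 FT 20 ppm, 2 MT 100 ppm, 1 MT 10 ppm) was isolated at EPA and that of the other mice at EA.

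As background, the adrenal hormone corticosterone enters the hepatocyte, binds the glucocorticoid receptor in its chaperone complex, and the receptor then moves to the nucleus and switches on genes of amino acid and glucose metabolism. Carrier proteins in blood and enzymes in the endoplasmic reticulum set how much active hormone reaches the receptor. Metallothioneins are small cysteine-rich proteins that bind zinc, copper and cadmium, and their genes are switched on both by metals and by glucocorticoids. OPPs inhibit acetylcholinesterase and are activated and cleared in the liver.

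Estimated total counts ranged from 6950381 to 15300589 per mouse. The floor was set at 3 counts, which lay between 0.196 and 0.432 CPM. CPM are counts scaled to a common library total, and they are given after TMM scaling, a correction for differences in RNA composition between libraries. Since the probes of different genes need not work equally well, levels were compared between mice and not between genes. PT 80 ppm mouse 1 stood apart from its group, with the lowest of all 84 median correlations to the mice of its own group (r = 0.933 across genes, where genes are not independent replicates), and results that rest on it are given with and without it. It belonged to block 1, as did PT 80 ppm mouse 2. All 6 hepatocyte markers were measured, and their summed level was 30962 to 45762 CPM in control mice and 27370 to 42270 CPM at PT 80 ppm. The adipocyte markers Adipoq, Plin1 and Cfd had a median count of 0. In bulk liver, fewer cells of a type and less RNA per cell cannot be told apart.

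Rises among these genes were found mainly at PT 80 ppm, the highest PT dose measured here. At PT 80 ppm, 5 of the 10 genes were higher than in control and 0 were lower (edgeR quasi-likelihood test, Benjamini-Hochberg adjusted p under 0.05), against 9.73% of the 10415 tested genes called higher. These were Fkbp5, Igfbp1, Tat, Tsc22d3 and Hsd11b1. With all 7 mice the median log2 fold change was 0.81 over the 10 genes and 0.01 over all tested genes. Without mouse 1, Igfbp1 (0.36, adjusted p = 0.722) and Tat (0.62, adjusted p = 0.299) were no longer called. Fkbp5, Tsc22d3 and Hsd11b1 still were, and Serpina6 was added (0.65, adjusted p = 0.0187), beside 6.57% of all genes called higher. Without both block 1 mice, Tsc22d3 and Tat were not called and Fkbp5 was, beside 4.32% of all genes called higher. At FT 10 ppm, 2 of the 10 were called, Hsd11b1 higher and Nr3c1 lower, against 1.57% of all genes (0.835% higher and 0.739% lower). In the other 9 dosed groups 0 were called by edgeR, beside 0%, 0.0096% or 0.0768% of all genes called. At an unadjusted p under 0.05 there were 4 of the 10 genes at FT 2.5 ppm, 4 at MT 100 ppm and 0 to 2 elsewhere. Of all 10415 tested genes, 1116 passed that unadjusted limit at FT 2.5 ppm, 1421 at MT 100 ppm and 415 to 1038 elsewhere. DESeq2 called 1 gene in these 9 groups, Hsd11b1 at MT 100 ppm, and limma 0. Every dosed group was compared with the same 7 control mice, so the comparisons are not independent of each other. The plot of levels by group shows each mouse.

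**Figure D1:**
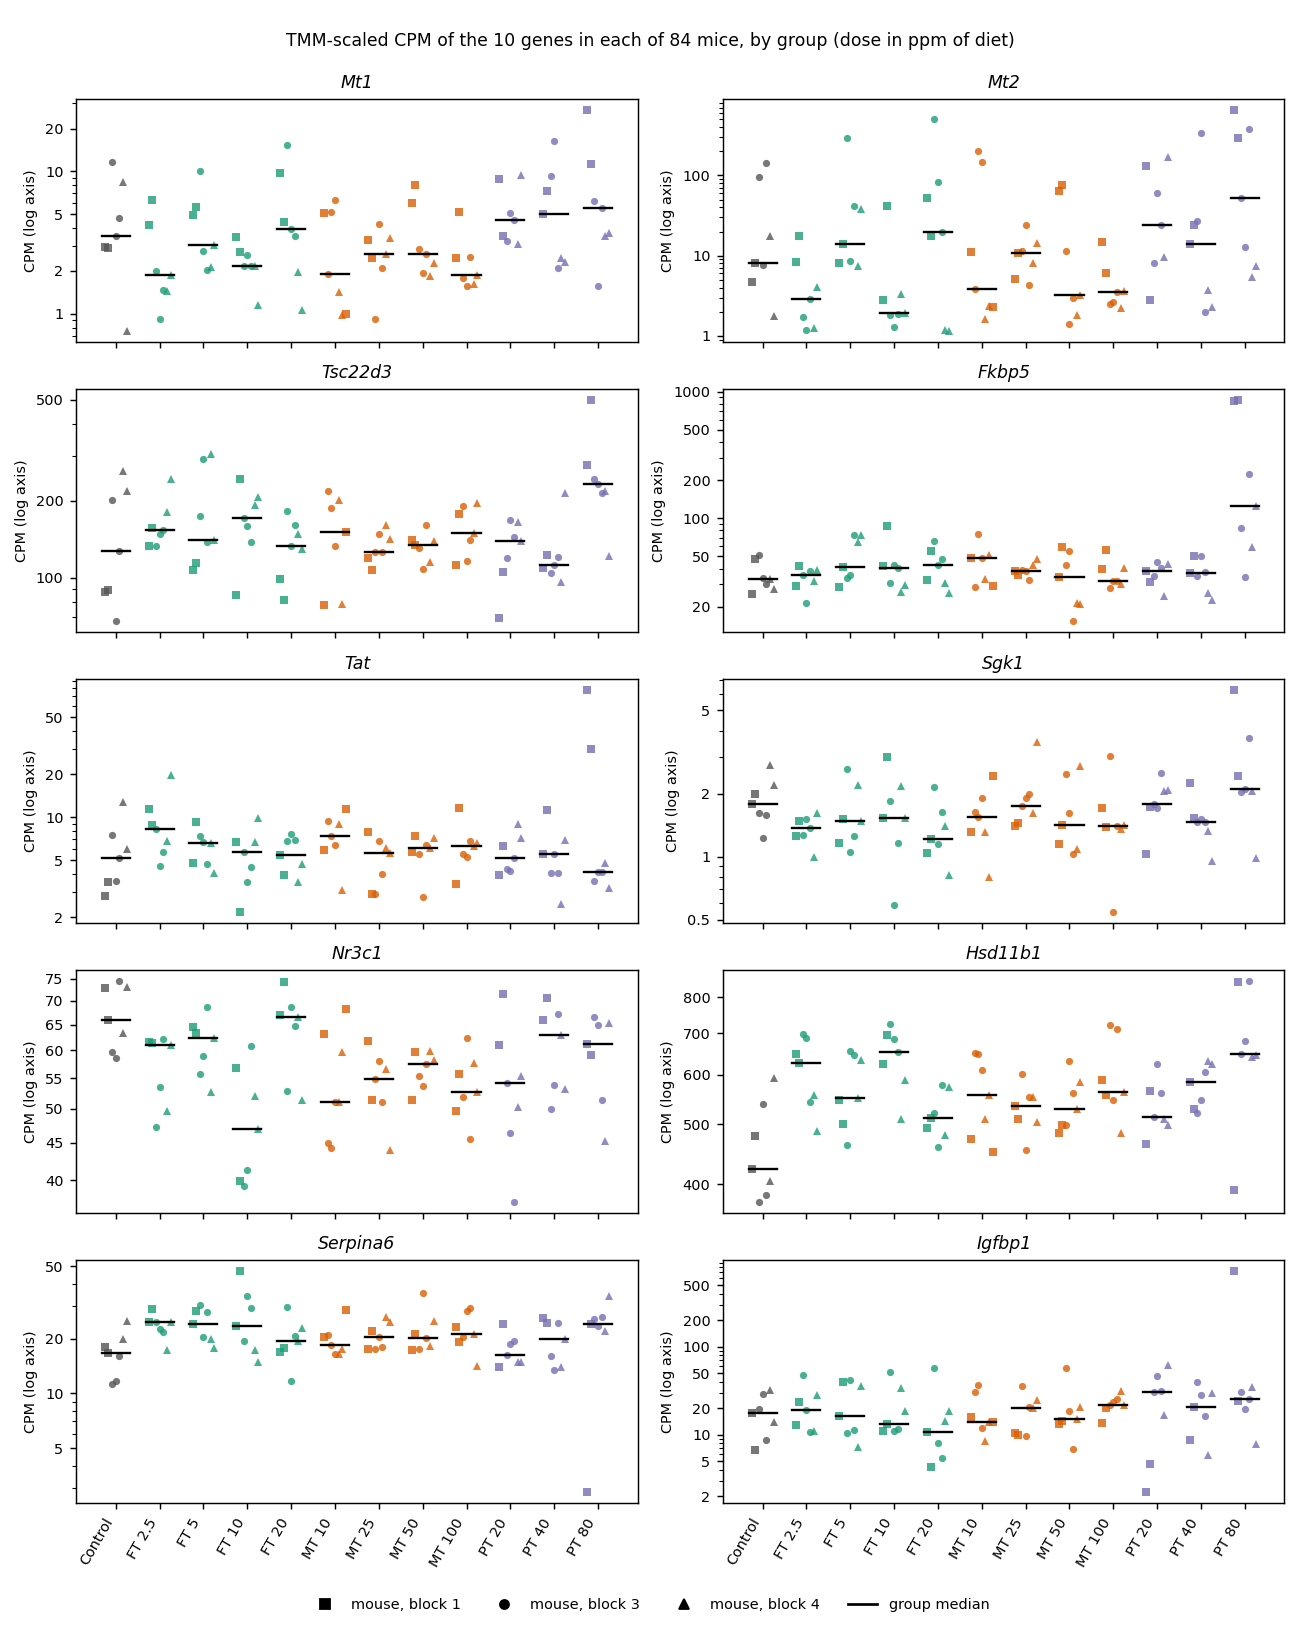
TMM-scaled CPM (log axis) of the 10 genes in each of 84 mice, by group, with symbols for the experimental block and a line at the group median. Fkbp5 reaches 845 and 856 CPM in both PT 80 ppm mice of block 1, while the highest control mouse holds 51.6 CPM, and Mt2 spreads widely within most groups.

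Fkbp5, which encodes a co-chaperone that lowers the receptor's affinity for hormone and is itself a sensitive target of the receptor, had the smallest p of the 10 genes at PT 80 ppm. It lies on the minus strand at chr17:28618058-28737521 (GRCm39, as for all positions here). Its level in the 7 control mice ran from 25.1 CPM through a median of 33.1 to 51.6 CPM. At PT 80 ppm the mice held 845, 856, 83.2, 34.1, 225, 59.2 and 125 CPM. The first pair, both of block 1, stood well above the others, the next being mouse 5 at 225 CPM, 6 of 7 mice exceeded the highest control mouse and 1 lay within the control range. The difference was 2.94 on the log2 scale (SE 0.38, 95% interval 2.17 to 3.70, adjusted p = 2.78e-08). The exact two-sided permutation test of 7 against 7 mice, which took no account of block or isolator, gave an unadjusted p of 0.00233. After adjustment over the 110 such tests of genes and dosed groups its p was 0.064, which did not pass. Leaving out both block 1 mice, which was decided after the data were examined, lowered the log2 difference to 1.57 (adjusted p = 0.000224). Within single blocks it was 4.55 in block 1, 1.63 in block 3 and 1.62 in block 4, with adjusted p of 8.84e-06, 0.0507 and 0.0353. The lower PT doses stayed at the control level, with medians of 37.9 CPM at 20 ppm and 37.1 CPM at 40 ppm.

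Tsc22d3, which encodes the glucocorticoid-induced leucine zipper (GILZ) protein, rose at PT 80 ppm to 1.94 times the control level. It lies at chrX:139440091-139501408, minus strand. Control mice held 67.4 to 263 CPM with a median of 127, and PT 80 ppm mice 122 to 497 CPM with a median of 233. The groups overlapped, with 6 of 7 PT 80 ppm mice above the control median but only 2 above the highest control mouse. The log2 fold change was 0.96 (SE 0.25, adjusted p = 0.00373). It was 0.91 without mouse 1 (adjusted p = 0.0101) and 0.48 without both block 1 mice, which no longer passed the test (adjusted p = 0.239). Within block 4 alone the difference was -0.49 (adjusted p = 0.716).

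Tat, encoding tyrosine aminotransferase, a classical glucocorticoid-induced liver enzyme of tyrosine breakdown, was high in 2 mice only. It lies at chr8:110717063-110726435, plus strand. Its PT 80 ppm values were 77.1 and 29.9 CPM in the mice of block 1 and 3.22 to 4.8 CPM in the other 5. Control mice ranged from 2.80 to 12.9 CPM with a median of 5.21, so that the other 5 mice all lay below the control median. The fitted log2 fold change of 1.57 (SE 0.43, adjusted p = 0.00637) therefore came from block 1. It fell to 0.62 without mouse 1 (adjusted p = 0.299) and turned to -0.37 without both block 1 mice (adjusted p = 0.599).

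Igfbp1, encoding a secreted liver protein that binds insulin-like growth factors and is raised by glucocorticoids and lowered by insulin, rested on 1 mouse. It lies at chr11:7147651-7152546, plus strand. PT 80 ppm mouse 1 held 722 CPM, 41.1 times the control median, and the other 6 held 7.77 to 34.5 CPM. Control mice held 6.67 to 32.3 CPM with a median of 17.6. The log2 fold change was 3.00 (SE 0.69, adjusted p = 0.000896) with all 7 mice and 0.36 without mouse 1 (adjusted p = 0.722).

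Sgk1, encoding a kinase of salt and nutrient transport that glucocorticoids induce in many tissues, was not called at PT 80 ppm. Control mice held 1.23 to 2.75 CPM with a median of 1.79, and PT 80 ppm mice 0.992 to 6.21 CPM with a median of 2.10. The highest value was again that of mouse 1, and the log2 fold change was 0.57 (SE 0.28, adjusted p = 0.156). Sgk1 has several annotated starts. RefSeq lists 6 of them, and the 250 bases before 1 of these hold a full glucocorticoid response element, the palindrome that a receptor dimer binds, here AGAACA and TGTTCT with any 3 bases between, searched on both strands. Only 3 of the 32851 such windows of all RefSeq starts (0.00913%) hold it. The window is shown because it is the sole such match among the genes described here. It is chr10:21869539-21869788 of GRCm39, plus strand, placed by exact match of the RefSeq sequence (GRCm38.p6), and lies in introns of longer Sgk1 transcripts. Capitals mark the match, which begins 189 bases before that start and contains 2 of the window's 3 copies of TGTTCT, counted on either strand.
Sgk1 promoter window: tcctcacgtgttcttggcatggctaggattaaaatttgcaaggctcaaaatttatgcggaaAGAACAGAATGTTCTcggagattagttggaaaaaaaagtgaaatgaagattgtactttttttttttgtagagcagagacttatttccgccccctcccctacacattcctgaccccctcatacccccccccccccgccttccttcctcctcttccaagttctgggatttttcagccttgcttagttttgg
A match is a description of the sequence and was not tied to the level of the gene. The 250 bases before the first coding base of Sgk1 hold 0 copies of TGTTCT. The RefSeq windows of Fkbp5, Tat, Igfbp1, Hsd11b1, Mt1 and Mt2 hold 0 copies of TGTTCT, which 16.1% of all RefSeq windows hold at least once. Among the windows of Tsc22d3, 1 holds a single copy, and no RefSeq window was given for Nr3c1 and Serpina6.

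The metallothionein genes varied widely between mice of the same group and were not called in any group by edgeR with all mice. Mt2 ran from 1.15 to 654 CPM over the 84 mice, a 571-fold range, and Mt1 from 0.756 to 27 CPM, a 35.7-fold range. The median SD within a group was 2.10 on the log2(CPM + 1) scale for Mt2 and 0.68 for Mt1, against 0.18 for Nr3c1 and 0.18 for Hsd11b1. Control mice held 4.66, 8.13, 94.7, 7.70, 144, 17.8 and 1.77 CPM of Mt2, so that untreated livers alone spread widely. PT 80 ppm mice held 654, 292, 51.8, 13, 384, 5.45 and 7.52 CPM. Mice 1, 2 and 5 exceeded every control mouse, and mice 6 and 7 lay below the control median of 8.13 CPM. The log2 fold change was 1.96 (SE 1.21, 95% interval -0.45 to 4.36, adjusted p = 0.276). That of Mt1 was 0.66 (SE 0.49, adjusted p = 0.384), with a median of 5.49 CPM against 3.49 CPM in control. Mt1 was called among EA mice alone (1.49, adjusted p = 0.0239) and within block 1 (2.7, adjusted p = 0.00198), with 0.76 within block 4 and -0.53 within block 3 (adjusted p = 0.702 and 0.733).

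In several groups of the other OPPs both metallothionein genes had lower fitted levels than in control, without passing the test. At FT 2.5 ppm Mt2 had a median of 2.91 CPM, a highest value of 17.4 CPM and a log2 fold change of -2.89 (SE 1.29, adjusted p = 0.393). At MT 100 ppm its median was 3.54 CPM, its highest value 14.9 CPM and its log2 fold change -2.87 (SE 1.24, adjusted p = 0.285). FT 10 ppm was similar at -2.39 (SE 1.26, adjusted p = 0.314), where mouse 2 held 41.4 CPM and the other 6 held 1.3 to 3.30 CPM. Mt1 was at -0.95, -1.09 and -1.03 in the same groups. These signs did not hold throughout. Within block 1 the fitted change of Mt2 was 1.03, 0.72 and 1.77 in these groups, and in the authors' adjusted values at FT 10 ppm Mt2 was at 1.01 (adjusted p = 0.237) and Mt1 at 1.97 (limma, adjusted p = 1.68e-08). In the authors' values 3 of the control mice hold identical numbers for all 10 genes. This narrows the control spread, so p-values from those values cannot be taken at face value. FT 20 ppm, the highest dose of FT, had a fitted change of 0.87 for Mt2 with a range of 1.15 to 509 CPM. For MT the fitted change of Mt2 was -0.02, -1.60, -1.02 and -2.87 at 10, 25, 50 and 100 ppm, and its trend of -0.18 per mg/kg did not pass the test (SE 0.08, adjusted p = 0.41).

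Mt1 and Mt2 lie next to each other on chromosome 8 and share metal response elements, the sites of the zinc-sensing factor Mtf1. In the 250 genomic bases before the first coding base (GRCm39, GENCODE), Mt1 holds 5 copies of the core TGCACNC or TGCGCNC on either strand and Mt2 holds 4. Of 21770 protein-coding genes, 22.4% hold at least 1 copy, 0.312% at least 4 and 0.0551% at least 5 in such a window. In the 250 bases before the RefSeq start, the kind of window shown for Sgk1, Mt1 holds 1 copy and Mt2 holds 3. Of all RefSeq windows 21.4% hold at least 1 copy and 1.26% at least 3. The sites before the first coding base are shown because the levels of this pair moved together more closely than those of any other pair of the 10 genes. Each is given on the plus strand with 7 bases on either side and the core in capitals, and cores that read as the reverse complement appear as such. Those of Mt1 lie within chr8:94905687-94905828 and those of Mt2 within chr8:94899243-94899370, partly inside the transcribed leader of the longer annotated transcripts.
Mt1 site 1: cccgctgTGCACACtggcgct
Mt1 site 2: ggagctcTGCACTCcgcccga
Mt1 site 3: cgaaaagTGCGCTCggctctg
Mt1 site 4: gcctgctGGGTGCAaaccctt
Mt1 site 5: aacccttTGCGCCCggactcg
Mt2 site 1: tcgggtcGTGCGCAggcccag
Mt2 site 2: aaagggcGTGTGCAggcggcg
Mt2 site 3: cgggggcGCGTGCAtggtgcc
Mt2 site 4: gagctttTGCGCTCgacccaa
The sites nearest to the coding start, site 5 of Mt1 and site 4 of Mt2, begin 124 and 119 bases before it.

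After group, block and isolator were subtracted, Mt1 and Mt2 correlated over the 84 mice with Pearson's r = 0.797 and Spearman's rho = 0.755 (permutation p = 1e-05 for each, the smallest that 100000 resamples can give, adjusted p = 0.000112 and 0.00015 over the 45 pairs of the 10 genes). Without the 2 mice with the most extreme Mt1, r was 0.774, and within blocks 1, 3 and 4 it was 0.727, 0.815 and 0.847. The coding sequences of this pair are alike, and whether their probes shared reads was not tested. The scatter of both genes shows that the relation held across the range, in control and dosed mice. The genes most like Mt2 among all 10415 were Dnajc12 (rho = 0.794), Cyb561 (rho = 0.785) and Lcn2 (rho = 0.783), the last encoding the acute phase protein lipocalin 2. For Mt1 they were Grn (rho = 0.778), Dnajc12 (rho = 0.757) and Mt2 itself.

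**Figure D2:**
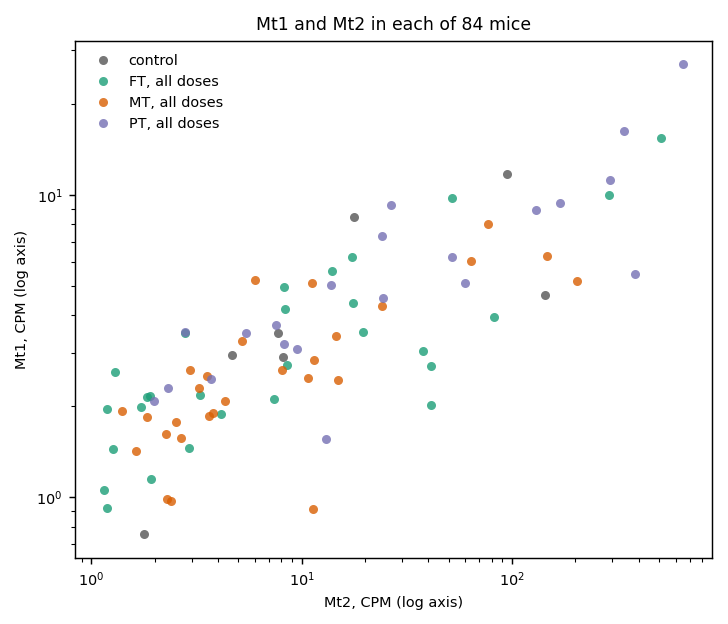
Mt1 against Mt2 (CPM, both axes log) in each of the 84 mice, coloured by OPP. The points rise together from about 1 CPM of either gene to PT 80 ppm mouse 1 at 654 CPM of Mt2 and 27 CPM of Mt1, and control mice lie over most of the range.

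Block moved with metallothionein levels. The median of Mt2 was 13.9 CPM in the 24 mice of block 1, 11.4 CPM in the 36 of block 3 and 3.47 CPM in the 24 of block 4, and that of Mt1 was 5.00, 2.79 and 2.15 CPM. A test of both block terms in the same model, added after the data were examined, called 6 of the 10 genes (Mt1, Mt2, Nr3c1, Fkbp5, Hsd11b1 and Tsc22d3), against 39.9% of all genes. At PT 80 ppm the difference from control in Mt2 was 6.20 within block 1 (adjusted p = 0.00548), 0.66 within block 3 and 0.33 within block 4 (adjusted p = 0.848 and 0.945). The difference of the blocks' responses was not tested.

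Nr3c1, the gene of the receptor itself, was the steadiest of the 10 and had its highest mean level in control. Control mice held 58.5 to 74.5 CPM with a median of 65.9. At FT 10 ppm the range was 39.3 to 60.8 CPM with a median of 47, and 6 of 7 mice lay below the lowest control mouse. The log2 fold change of -0.43 (SE 0.10, adjusted p = 0.0241) corresponds to 0.742 times the control level. Without control mouse 5 it was -0.38 and no longer called (adjusted p = 0.108). In the other 10 dosed groups the fitted difference ran from -0.32 at MT 100 ppm (adjusted p = 0.109) to -0.08 at FT 20 ppm, and at PT 80 ppm it was -0.13 (95% interval -0.33 to 0.06, adjusted p = 0.361).

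Hsd11b1, whose product regenerates active corticosterone from its inert form, showed the opposite order, with its lowest mean level in control. It lies at chr1:192903918-192946489, minus strand. Control mice held 423, 479, 375, 538, 384, 405 and 593 CPM. In 10 of the 11 dosed groups all 7 mice lay above the control median of 423 CPM, and at PT 80 ppm 6 of 7 did. PT 80 ppm mice held 641 to 850 CPM apart from mouse 1 at 392 CPM, and the log2 fold change was 0.48 (SE 0.10, adjusted p = 0.000224), or 0.58 without mouse 1. At FT 10 ppm the range was 509 to 724 CPM with a median of 652, and the log2 fold change was 0.41 (SE 0.10, adjusted p = 0.0247). That call was lost without control mouse 5 (0.35, adjusted p = 0.128) and among mice isolated at EA alone (0.39, adjusted p = 0.0743). RNA isolated at EPA gave a Hsd11b1 level lower by -0.28 on the log2 scale (adjusted p = 0.00358), the only 1 of the 10 genes called for the isolator, against 38.7% of all genes. Both EPA control mice, numbers 3 and 6, lay below the control median, and among EA mice alone the PT 80 ppm difference was 0.45 (adjusted p = 0.00257).

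Serpina6, encoding corticosteroid-binding globulin, the carrier that the liver secretes into blood, also had its lowest mean in control but was called in no group. Control mice held 11.3 to 25.0 CPM with a median of 16.7. The largest fitted difference was 0.64 at FT 10 ppm (SE 0.24, adjusted p = 0.129), with 14.9 to 47 CPM. At PT 80 ppm mouse 1 held 2.86 CPM, the lowest of all 84 mice, while the other 6 held 21.9 to 34.1 CPM. The log2 fold change was 0.43 (adjusted p = 0.211) with it and 0.65 without it, which passed the test (adjusted p = 0.0187).

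**Figure D3:**
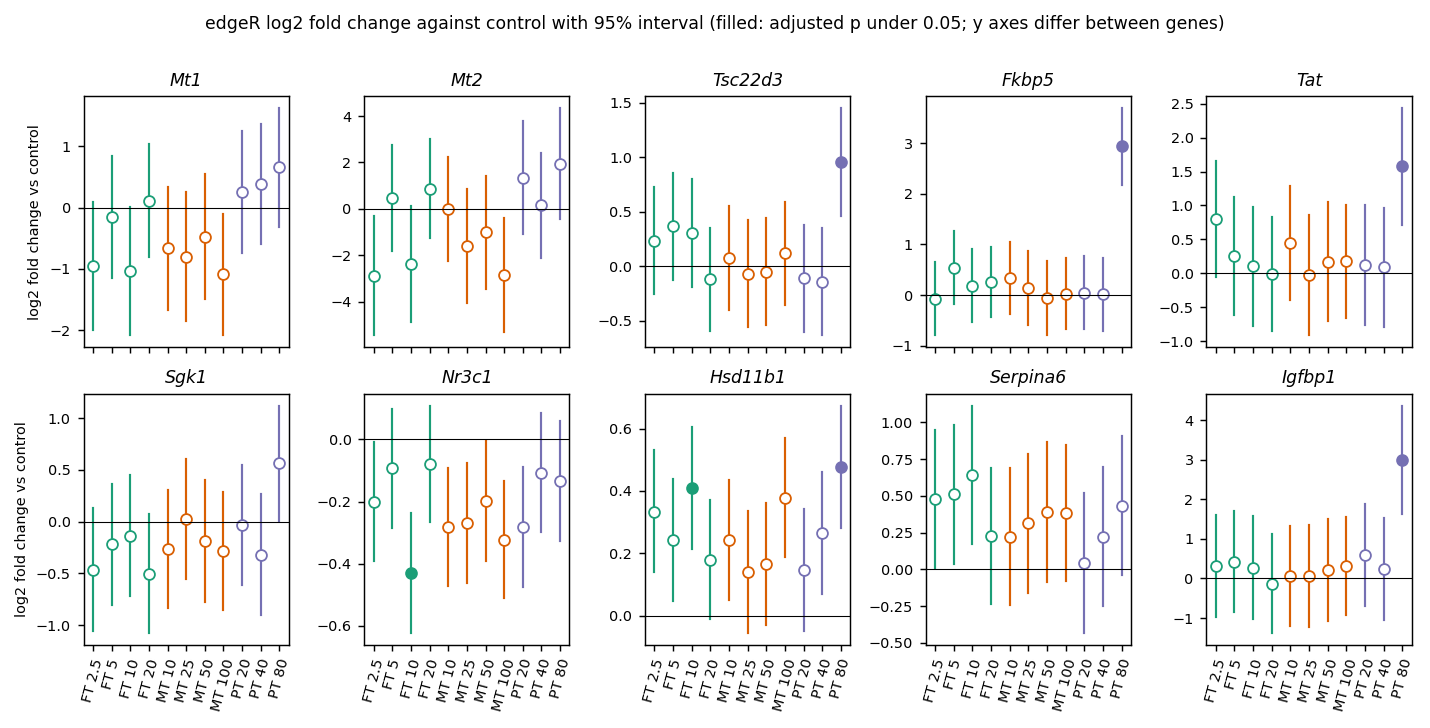
Log2 fold change of each gene against control (edgeR, point) with its 95% interval (line) in the 11 dosed groups, where filled points have an adjusted p under 0.05 and the y axes differ between genes. Filled points appear at PT 80 ppm for Fkbp5, Igfbp1, Tat, Tsc22d3 and Hsd11b1 and at FT 10 ppm for Hsd11b1 and Nr3c1.

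The PT 80 ppm mice did not form 1 pattern. Mouse 1 held the highest value of all 84 mice for Mt1, Mt2, Tat, Sgk1 and Igfbp1, the second-highest for Fkbp5, and the lowest for Serpina6. Relative to the control median it held 80.4 times as much Mt2, 25.5 times as much Fkbp5 and 14.8 times as much Tat. Mouse 2 shared the high Fkbp5, Tat, Mt2 and Tsc22d3, the last at 497 CPM the highest of all mice, yet its Igfbp1 of 24.1 CPM and Serpina6 of 24.1 CPM were close to those of the other mice. Mouse 5 of block 3 held 384 CPM of Mt2 and 225 CPM of Fkbp5, with Tat at 4.14 CPM below the control median. Mouse 4 held 34.1 CPM of Fkbp5 and 1.56 CPM of Mt1 and lay within the control range for both. Nr3c1 lay between 45.2 and 66.6 CPM in all 7. The plot of each PT 80 ppm mouse against the control median shows these values together.

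**Figure D4:**
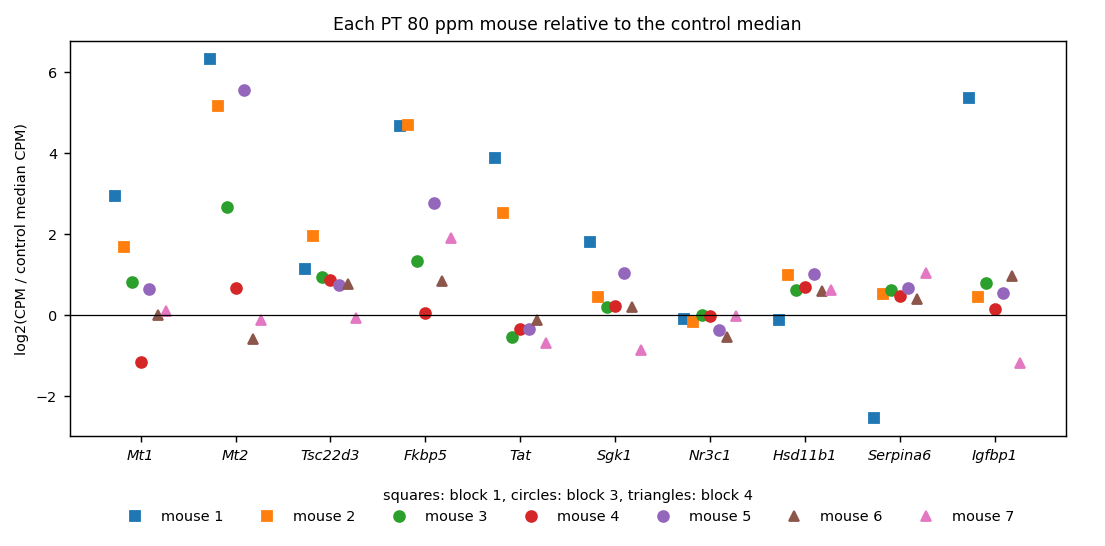
Log2 ratio of each PT 80 ppm mouse to the median of the 7 control mice for the 10 genes, with a colour for each mouse and a symbol for its block. The block 1 mice 1 and 2 lie highest for Mt1, Fkbp5 and Tat, only mouse 1 is high for Igfbp1, and mouse 1 is below all others for Serpina6.

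Markers of several other cell types were lower in PT 80 ppm livers, where 8.89% of all genes were called lower and 9.73% higher. The summed level of 6 Kupffer cell markers was 9.07 to 85.2 CPM at PT 80 ppm and 66.2 to 138 CPM in control, with 2 of the 4 tested markers called lower. Mouse 1 was the lowest at 9.07 CPM. The 3 blood cell markers summed to 8.41 to 34.2 CPM against 23.1 to 119 CPM, and all 3 were called lower. Of the 6 hepatocyte markers, 2 were called higher and 1 lower. The 5 endothelial markers were not called, of 4 tested stellate markers 1 was called higher, and the 1 tested cholangiocyte marker and 1 of 2 tested leukocyte markers were called lower. The single tested neutrophil marker was not called, with summed levels of 0.784 to 4.95 CPM at PT 80 ppm and 1.01 to 10.8 CPM in control. Adipocyte markers summed to 8.09 CPM in mouse 1 and to at most 0.50 CPM in control mice, and pancreas markers to 0.545 to 5.96 CPM, against 0.155 to 6 CPM in control. Their part in the results of the 10 genes was not tested.

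Across the PT doses the 5 genes called at 80 ppm were also called in the linear trend with estimated intake, against 23% of all genes (11.9% rising), and in the joint test of all PT doses, against 19.6%. Both tests include the same PT 80 ppm and control mice, so they are not separate support for those calls. The fitted slope per mg/kg of body weight a day was 0.25 for Fkbp5 on the log2 scale (SE 0.03, adjusted p = 4.79e-10) and 0.24 for Igfbp1 (SE 0.05, adjusted p = 0.000335). These slopes do not describe a steady rise. The difference of Fkbp5 from control was 0.047 at 20 ppm, 0.012 at 40 ppm and 2.94 at 80 ppm, and that of Igfbp1 was 0.592, 0.244 and 2.997. Without mouse 1 the slope of Fkbp5 was 0.22 (adjusted p = 8.67e-09), while those of Igfbp1 (0.019, adjusted p = 0.813) and Tat (0.051, adjusted p = 0.255) were not called and that of Serpina6 was (0.056, adjusted p = 0.00669). When PT 80 ppm was set against PT 40 ppm, which was chosen after seeing the data, 5 genes were higher, against 8.23% of all genes. They were Fkbp5 (2.93, adjusted p = 3.13e-08), Igfbp1 (2.75, adjusted p = 0.00194), Tat (1.49, adjusted p = 0.00717), Tsc22d3 (1.10, adjusted p = 0.000644) and Sgk1 (0.88, adjusted p = 0.0192). Without mouse 1 Fkbp5 (2.54) and Tsc22d3 (1.05) were still called, beside 3.98% of all genes higher, Hsd11b1 was added at 0.30 (adjusted p = 0.0232), and Igfbp1, Tat and Sgk1 were not called (adjusted p = 0.912, 0.41 and 0.222). PT 40 ppm against control called 0 of the 10 genes by edgeR, DESeq2 or limma. By edgeR 1 of them had an unadjusted p under 0.05, beside 886 of all 10415 tested genes. For FT and MT, edgeR called 0 of the 10 genes in the trend and in the joint test. That stands beside 0% and 0.0768% of all genes called for FT and 0.0672% and 0.0864% for MT. At an unadjusted p under 0.05 there were 0 and 3 of the 10 genes for FT and 3 and 2 for MT. Of all 10415 tested genes, 451 and 1539 passed that unadjusted limit for FT and 972 and 960 for MT. DESeq2 called 1 gene, in the joint test of FT.

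The OPPs were compared at the same estimated intake in 2 pairs. Fenthion and methidathion carry O,O-dimethyl groups and parathion O,O-diethyl groups, and methidathion is a phosphorodithioate while the other compounds are phosphorothioates. At 10 ppm (1.5 mg/kg of body weight a day), FT and MT differed in 0 of the 10 genes by edgeR, DESeq2 or limma, beside 0% of all genes called by edgeR. Beside 798 of all 10415 tested genes, 1 of the 10 had an unadjusted p under 0.05 by edgeR. That was Mt2, with medians of 1.92 CPM in FT and 3.79 CPM in MT and a difference of -2.37 (95% interval -4.72 to -0.02, adjusted p = 0.903 over both pairs). The interval was -0.85 to 0.54 for Fkbp5 and -0.02 to 0.36 for Hsd11b1. At 20 ppm (3 mg/kg of body weight a day), FT and PT differed in 0 of the 10 genes by edgeR, DESeq2 or limma, again beside 0% of all genes called by edgeR. Beside 354 of all 10415 tested genes, 1 of the 10 had an unadjusted p under 0.05. This was Nr3c1, higher in FT by 0.20 (95% interval 0.01 to 0.40, adjusted p = 0.903), and the interval of Fkbp5 was -0.51 to 0.91. Differences within these intervals were not excluded with 7 mice a group, and the smallest detectable difference was not computed. The higher doses of MT and PT differ in intake, at 15 mg/kg for MT 100 ppm and 12 mg/kg for PT 80 ppm, where Fkbp5 had medians of 32 and 125 CPM.

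In the order of group means, PT 80 ppm was the highest of the 12 groups for 8 of the 10 genes, the exceptions being Nr3c1, highest in control, and Serpina6, highest at FT 10 ppm. The share of all genes with PT 80 ppm on top was not determined, and the order was not redone without mouse 1. That mouse held the highest value of all mice for Mt1, Mt2, Tat, Sgk1 and Igfbp1. For Tat the lead over the next group, FT 2.5 ppm, was 0.008 (exact two-sided permutation test, p = 0.992). Of the 110 pairs of neighbours in these orders, 1 differed at an unadjusted p under 0.05, PT 80 ppm and the next group, FT 5 ppm, for Fkbp5 (exact two-sided permutation test on log2(CPM + 1), p = 0.0233). With 7 mice a group the smallest possible p is 0.000583, so that no single pair could have passed after adjustment over the 110 pairs, and groups further apart in an order were not tested this way.

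Pairs of the 10 genes also correlated within groups. Of their 45 pairs, 19 had an adjusted p under 0.05 for both r and rho over the 84 mice, 15 of them positive and 4 negative. The share among other pairs of genes was not determined, so this count is no trait of the set. Among all tested genes, the number with a rho above 0.5 to a single member ran from 2 for Sgk1 to 195 for Mt2. After the metallothionein pair, Tsc22d3 and Tat were the most alike (r = 0.57, rho = 0.635, adjusted p = 0.000112 and 0.00015), with r of 0.463, 0.508 and 0.796 in blocks 1, 3 and 4 and 0.494 without the 2 mice with the most extreme Tsc22d3. Fkbp5 followed Mt2 (r = 0.549, rho = 0.548, adjusted p = 0.000112 and 0.00015), with r of 0.653, 0.457 and 0.63 in the blocks and 0.534 without the 2 mice. Hsd11b1 ran against Mt1 (r = -0.425, rho = -0.395, adjusted p = 0.00045 and 0.0018), with r of -0.444, -0.422 and -0.419 in the blocks and -0.339 without the 2 mice. Nr3c1 ran against Igfbp1 (r = -0.331, rho = -0.394, adjusted p = 0.00588 and 0.00187), but unevenly between blocks, with r of -0.207, -0.577 and -0.0803, and -0.316 without the 2 mice. Hsd11b1 and Serpina6 correlated with r = 0.501 and rho = 0.344 (adjusted p = 0.000375 and 0.0066), and r was 0.317 without PT 80 ppm mouse 1, 0.306 without the 2 mice with the most extreme Hsd11b1, and 0.795, 0.156 and 0.416 in the blocks. All values of a mouse come from the same library.

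Genes outside the set were also close to single members, by rho over the same 84 mice. Klf15, a glucocorticoid-induced factor of amino acid and glucose metabolism, was the gene most like Tat (rho = 0.733) and the second most like Tsc22d3 (rho = 0.715), after Trp53inp1 (rho = 0.765). The third for Tsc22d3 was Klf3 (rho = 0.672), and for Tat Tsc22d3 itself and Mpzl2 (rho = 0.624) followed. Fkbp5 was nearest to Il1r1 (rho = 0.724), Eif4ebp3 (rho = 0.709) and Gfra1 (rho = 0.62). Igfbp1 was nearest to Irs2 (rho = 0.605), which encodes an insulin receptor substrate, then Atg16l2 (rho = 0.602) and Ip6k2 (rho = 0.564). Sgk1 had the loosest neighbours, Ugt1a9 (rho = 0.535), Klf3 (rho = 0.522) and Strn4 (rho = 0.482). For Hsd11b1 they were Qdpr (rho = 0.678), Ugt1a6a (rho = 0.669) and Hibadh (rho = 0.662), for Serpina6 Adh1 (rho = 0.796), Abhd14b (rho = 0.74) and Gm45753 (rho = 0.697), and for Nr3c1 Tab3 (rho = 0.675), Gm13991 (rho = 0.667) and Necab1 (rho = 0.658).

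Some other known targets of the receptor were also higher at PT 80 ppm, and fewer of them without the block 1 mice. Of 17 such genes 16 were tested, 8 were higher, 0 lower and 8 not called, beside 9.73% of all genes called higher, with a median log2 fold change of 0.62 over the 16 genes and 0.01 over all tested genes. The fitted change was above 0 for 14 of the 16, yet the largest was a fall that was not called, Lcn2 at -2.985 (adjusted p = 0.156). The largest called rises were Ddit4 (2.7, adjusted p = 0.000705), an inhibitor of the growth-controlling mTOR complex, Lpin1 (2.03, adjusted p = 0.000935), an enzyme of lipid synthesis, the transcription factor Zbtb16 (1.52, adjusted p = 0.000425) and the transcription factor Cebpd (1.34, adjusted p = 0.00542). Ddit4 rested on mouse 1, with a PT 80 ppm median of 0.98 CPM and a highest value of 44.3 CPM against 0.719 to 1.99 CPM in control, and was at 0.57 without it (adjusted p = 0.503). Cebpd was at 0.67 without mouse 1 (adjusted p = 0.168) and at 0.08 without both block 1 mice. Lpin1 was high in more mice, with a median of 764 CPM against 158 CPM in control. Without mouse 1, 3 of the 16 genes were called higher, among them Lpin1 (1.93) and Zbtb16 (1.25), beside 6.57% of all genes. Without both block 1 mice 1 of the 16 was called, Lpin1 (1.53), beside 4.32% of all genes, and the median over the 16 was 0.151.

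Of 14 receptor partners, chaperones and coregulators, 13 were tested and 2 were higher at PT 80 ppm, the chaperone gene Hspa8 (0.77, adjusted p = 0.00182) and the coactivator gene Ep300 (0.41, adjusted p = 0.00232), while 11 were not called. Both were called without mouse 1 (0.59 and 0.33) and neither without both block 1 mice (adjusted p = 0.197 and 0.0733). All this stands beside 9.73% of all genes called higher, and the median log2 fold change of the 13 was 0.03. The coactivator gene Ncoa1 was lower at FT 10 ppm (-0.27, adjusted p = 0.03), beside 0.739% of all genes, and was not called without control mouse 5 (-0.22, adjusted p = 0.154). Of 4 tested genes of glucocorticoid metabolism 2 were lower at PT 80 ppm and 1 higher, beside 8.89% and 9.73% of all genes, with a median of -0.46. H6pd, which supplies the cofactor that Hsd11b1 needs, was at -0.56 (adjusted p = 0.000759) and Srd5a1, a steroid reductase that clears glucocorticoids, at -0.998 (adjusted p = 0.000268). Akr1d1, another clearing reductase that also serves bile acid synthesis, was higher by 0.77 (adjusted p = 0.0101). Srd5a1 and H6pd were called without mouse 1 and without both block 1 mice as well.

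Among 13 tested genes of metal handling, 1 was higher and 1 lower at PT 80 ppm, near the 9.73% and 8.89% of all genes, with a median of -0.09. These were the zinc importer genes Slc39a14 (0.40, adjusted p = 0.0475) and Slc39a4 (-0.75, adjusted p = 0.0275), and neither was called without mouse 1 (adjusted p = 0.228 and 0.0628), where 1 other gene of the list was lower. Of 7 tested genes of IGF binding other than Igfbp1, 3 were higher, beside 9.73% of all genes, with a median of 0.21. Without mouse 1 it was 2 (beside 6.57%) and without both block 1 mice 1 (beside 4.32%). They were Igfbp2 (0.95, adjusted p = 0.00202), Igfbp3 (0.75, adjusted p = 0.0119) and Igfbp4 (0.32, adjusted p = 0.00469). Igfbp2, unlike Igfbp1, did not rest on mouse 1, and was at 1.10 without it and 1.04 without both block 1 mice. The plot of called pathway genes gives each value with and without these mice.

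**Figure D5:**
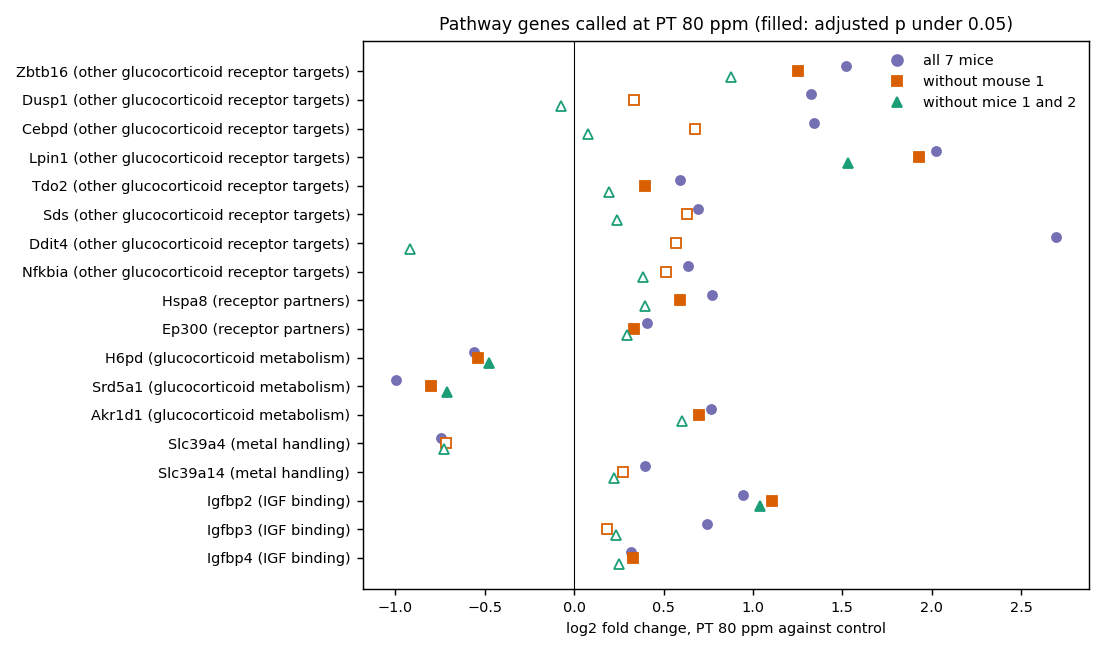
Log2 fold change at PT 80 ppm against control of the 18 pathway genes called there, with all 7 mice, without mouse 1 and without mice 1 and 2 of block 1, where filled points have an adjusted p under 0.05. Ddit4, Dusp1 and Igfbp3 lose most of their change without mouse 1, while Lpin1, H6pd, Srd5a1 and Igfbp2 are filled in all 3.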

How the data were processed

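Per the labels and the study's methods, the authors trimmed the TempO-Seq reads, aligned them with STAR v2.7.8a to mm39, quantified Ensembl release 106 with Partek E/M and deposited estimated counts without normalization, of which 18.7% were not whole. The authors also deposited log2(CPM + 1) values from which a general linear model had removed the effects of block and isolator, which are treated here as a score and used as an alternative. Gene names and coordinates are those of GENCODE vM39 on GRCm39, the assembly named mm39. Of 17695 identifiers, 17660 had a name.

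The expected counts were rounded and fitted with edgeR 4.0.16 in R 4.3.3 (quasi-likelihood test, TMM scaling) in 1 model over all 84 mice, with group, block and isolator, keeping 10415 genes whose median count exceeded 8. P-values were adjusted over all these genes. Cage was not in the model, so the p-values measure spread between mice and not between the cages that were assigned to diets. Samples were grouped by the labels. Intervals of fold changes cover 95% and use the test's total degrees of freedom, residual plus those from the spread shared across genes. Intakes were taken as ppm times 0.15. DESeq2 1.42.0 and limma 3.58.1 served as alternatives, with other scalings, filters, pseudocounts (0.5 in place of 1), covariates, single blocks, mice isolated at EA, and mice left out in turn. The scripts were tested on simulated data. Permutation tests, correlations and figures used Python 3.11.15 (scipy 1.17.1, numpy 2.4.6, matplotlib 3.10.9, pandas 2.3.3). Since reads carried no molecular identifiers, the floor of 3 counts covers counting error only.

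All 10 genes were named. Of the pathway lists, genes called at PT 80 ppm were named up to 4 a direction, and genes called at another dose, apart from 1 gene that is not reported here. The 10 genes and the lists were chosen with earlier results of these data known, so nothing here is independent support for a pattern seen in them. Motifs were searched on both strands in RefSeq and GRCm39 windows of 250 bases.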

Additional observations from a re-analysis of the deposited data

Results flagged for a closer look

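Of 120 checks of 1 gene in 1 group of 7, 10 had a mouse set apart from the other 6 by Dixon's criterion, where chance gives about 1 in 20. In 3 of them it was PT 80 ppm mouse 1, with the highest Igfbp1 of its group at 722 CPM (next mouse 34.5 CPM), the lowest Serpina6 at 2.86 CPM (next 21.9 CPM) and the lowest Hsd11b1 at 392 CPM (next 641 CPM). FT 10 ppm mouse 2 of block 1 was the highest of its group for both Mt2, at 41.4 CPM (next 3.30 CPM), and Fkbp5, at 87.4 CPM (next 42.3 CPM). The other 5 were single genes in different mice. They were Mt1 at 5.22 CPM in MT 100 ppm mouse 2 (next 2.51 CPM), Tsc22d3 at 215 CPM in PT 40 ppm mouse 7 (next 123 CPM), Sgk1 at 3.54 CPM in MT 25 ppm mouse 7 (next 1.99 CPM), Serpina6 at 28.8 CPM in MT 10 ppm mouse 7, whose RNA was isolated at EPA (next 20.8 CPM), and, as a low value, Tat at 2.79 CPM in MT 50 ppm mouse 4 (next 5.50 CPM).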

How the results depend on the processing

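No paired analysis was possible because the labels give the mice no replicate numbers that are shared between groups. Leaving out 1 mouse at a time gave 4 to 5 of the 10 genes called at PT 80 ppm (1287 to 2171 of all genes), 0 to 3 at FT 10 ppm, 0 to 1 at MT 100 ppm, 4 to 6 in the joint test and 4 to 6 in the trend of PT, and 0 to 1 in the joint test of FT.

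At PT 80 ppm, 3 of the 10 genes were called by limma with either pseudocount (1914 of all genes with 1 and 1929 with 0.5). By edgeR 3 were called with control and PT mice alone (997 of all genes), 1 within block 3 (456 of all genes), 1 within block 4 (106 of all genes) and 3 without both block 1 mice (885 of all genes). In the same order the joint test of PT gave 3, 2, 3, 2 and 2, and the trend of PT gave 3, 3, 2, 1 and 3. At FT 10 ppm, 1 was called with library totals alone, 1 in EA mice and 0 with control and FT mice alone or within any single block. At MT 100 ppm, DESeq2 called 1, control and MT mice alone 2, and the fit without both block 1 mice 1. The joint test of FT gave 1 by DESeq2, 2 without block and isolator and 1 without both block 1 mice. The authors' adjusted values called 5474 of the 11064 genes they cover at PT 80 ppm and 6 of the 10, with Mt1 (1.86), Mt2 (2.20) and Nr3c1 (-0.38) gained and Tat and Tsc22d3 lost. At FT 10 ppm they called 3, with Fkbp5 (0.91) and Mt1 gained and Hsd11b1 lost. Of the 10 genes they also called 3, 2 and 1 at FT 2.5, 5 and 20 ppm, 3, 3, 3 and 5 at MT 10, 25, 50 and 100 ppm, 4 and 5 at PT 20 and 40 ppm, 6, 7 and 9 in the joint tests of FT, MT and PT, 2, 4 and 8 in the trends, and 5 and 4 in the pairs at 1.5 and 3 mg/kg. In those values 3 control, 3 FT 20 ppm, 3 MT 100 ppm and 2 MT 10 ppm mice hold identical numbers for all 10 genes. Apart from PT 80 ppm against control, the counts in this paragraph are not set beside the share of all genes called in the same setting. They describe how calls moved with the setting and are no result about the 10 genes.

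Signs turned as follows, and the cause was not tested. Within block 3 at PT 80 ppm, Tat was at -0.36, Cebpd at -0.034, Ddit4 at -0.62 and Dusp1 at -0.054. Within block 4, Tsc22d3 was at -0.49, Tat at -1.11, Cebpd at -0.075, Ddit4 at -0.95, Dusp1 at -0.37, Nfkbia at -0.19, Sds at -0.72 and Tdo2 at -0.14. Without both block 1 mice, Tat was at -0.37, Ddit4 at -0.92 and Dusp1 at -0.073. In the adjusted values, Tat was at -0.20, Akr1d1 at -0.23, Ddit4 at -0.38, Igfbp3 at -0.091 and Sds at -0.16. The PT trend per mg/kg turned for Tat within block 3 (-0.028), within block 4 (-0.10) and without both block 1 mice (-0.034), and within block 4 for Tsc22d3 (-0.029) and Igfbp1 (-0.018). At FT 10 ppm, Hsd11b1 was at -0.003 within block 4 and Mt1 at 1.97 in the adjusted values. Mt2 and Nr3c1 correlated at r = 0.184 within block 4, and Tsc22d3 and Fkbp5 at r = -0.034 within block 3.

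Library totals moved the median of all genes at PT 80 ppm by 0.12 on the log2 scale. Mt1, Sgk1 and Tat lie at a few CPM, where counting error adds to the spread, and single blocks leave 2 or 3 mice a group.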

Other observations

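Mt2 exceeded 100 CPM, a limit chosen after the values were seen, in 11 of the 84 mice. These were 3 PT 80 ppm, 2 PT 20 ppm and 2 MT 10 ppm mice and 1 each of control, FT 5 ppm, FT 20 ppm and PT 40 ppm, so high Mt2 occurred in untreated and dosed livers.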
